A study of Mus musculus with 4 samples.

Results

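The genes described here were 7 that are commonly grouped with type 2 and tissue repair programmes of regulatory T cells. They were Gata3, Il1rl1 (the gene of the IL-33 receptor ST2), Areg (amphiregulin), Il17rb (a chain of the IL-25 receptor), Ccr8, Ccr4 and Il9r. They were taken by name from the 31053 genes of each count matrix. No cut-off on a measured value chose them, but earlier results of these data were known. The tissue was the lamina propria of the small intestine, from which CD4 T cells were taken, and the hosts were Rag1-/- mice, which cannot make T or B cells. Irradiated hosts were given 10000000 bone marrow cells, 50% of them Bcl3-/- with the CD45.2 allele and 50% wild type with the CD45.1 allele, and were studied 16 weeks later. Both donors' cells therefore came from the same animals, and no ages were found in the labels. Live CD45+CD3+CD4+ cells were sorted and their RNA was counted with 10x 3' chemistry, together with barcoded antibody tags for both CD45 alleles. The comparison of the donors bears on what Bcl3, an atypical IkB protein that binds the NF-kB subunits p50 and p52, does within these T cells. Genotype, CD45 allele and donor animals go together in this design, so their parts in a donor difference cannot be told apart.

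ST2 is the receptor through which cells sense IL-33, an alarmin that epithelial and stromal cells release when damaged. GATA3, the master transcription factor of Th2 cells, is also found in a subset of intestinal regulatory T cells, where it is linked to ST2, and amphiregulin, a ligand of the EGF receptor, is known as a product of such cells in tissue repair. CCR4 and CCR8 are chemokine receptors of tissue regulatory and Th2 cells, and IL-17RB and IL-9R bind the type 2 cytokines IL-25 and IL-9.

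The DNA just upstream of 3 of these genes is shown because Il1rl1, Areg and Ccr4 carry the results below. The sequences are RefSeq promoter windows on GRCm38.p6, read 5′ to 3′ on the gene's strand and ended before the annotated transcript; Il1rl1 has 2 windows, for 2 annotated starts. Capitals mark GATAA or its reverse complement TTATC in Il1rl1, the cAMP response element TGACGTCA in Areg, and the AP-1 motif TGANTCA in Ccr4, all searched on both strands.
Il1rl1, chr1:40429320-40429569, + strand: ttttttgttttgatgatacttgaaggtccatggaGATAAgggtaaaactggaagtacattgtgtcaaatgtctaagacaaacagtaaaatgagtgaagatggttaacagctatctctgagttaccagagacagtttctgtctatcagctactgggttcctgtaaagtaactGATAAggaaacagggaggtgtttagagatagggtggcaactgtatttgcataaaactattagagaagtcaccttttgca
Il1rl1, chr1:40439379-40439626, + strand: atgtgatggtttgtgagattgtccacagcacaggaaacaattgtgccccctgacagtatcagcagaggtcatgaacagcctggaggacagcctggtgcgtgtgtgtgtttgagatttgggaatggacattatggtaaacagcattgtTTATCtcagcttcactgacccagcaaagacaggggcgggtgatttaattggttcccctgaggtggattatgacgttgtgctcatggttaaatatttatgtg
Areg, chr5:91139349-91139598, + strand: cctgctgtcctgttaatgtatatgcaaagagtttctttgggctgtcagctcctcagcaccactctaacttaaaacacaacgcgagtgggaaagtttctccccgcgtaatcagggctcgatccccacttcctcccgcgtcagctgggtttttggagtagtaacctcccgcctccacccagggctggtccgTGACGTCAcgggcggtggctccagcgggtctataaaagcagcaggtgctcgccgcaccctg
Ccr4, chr9:114496563-114496794, - strand: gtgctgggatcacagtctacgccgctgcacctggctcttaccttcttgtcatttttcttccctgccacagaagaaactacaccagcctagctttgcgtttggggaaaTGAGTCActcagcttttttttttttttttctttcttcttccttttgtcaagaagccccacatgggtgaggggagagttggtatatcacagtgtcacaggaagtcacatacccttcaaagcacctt

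In these windows GATAA stood 211 and 74 bases upstream of the first Il1rl1 start and 98 bases upstream of the second. The Areg motif stood 53 bases, and the Ccr4 motif 136 bases, upstream of the start. Distances are counted to the RefSeq start, which lies 2 bases past the end of the second Il1rl1 window shown and 18 bases past that of Ccr4. Among 32851 RefSeq windows of 250 bases, 22.6% held GATAA, 1.55% TGACGTCA and 6.75% TGANTCA, so the GATAA match is a common one. The other windows were searched too: Il9r held GATAA in 3 places, Ccr8 in 1, Gata3 held none of these motifs, and Il17rb held TGAGTCA 97 bases upstream of its start. No window of the 7 genes held the NF-kB motif, which 7.25% of all windows held. These are matches of letters and say nothing of binding.

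On GRCm38 (GENCODE M21), Gata3 (ENSMUSG00000015619) lies at chr2:9857078-9890034, Il1rl1 (ENSMUSG00000026069) at chr1:40429570-40465415 and Areg (ENSMUSG00000029378) at chr5:91139599-91148432. Il17rb (ENSMUSG00000015966) lies at chr14:29996135-30008896 and Il9r (ENSMUSG00000020279) at chr11:32187541-32200279. Ccr8 (ENSMUSG00000042262) at chr9:120092114-120094906 and Ccr4 (ENSMUSG00000047898) at chr9:114490316-114504916 share a chromosome. Il1rl1 is 97.6 Mb from Ptprc, the CD45 gene that differs between the donors, on the same chromosome.

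Recipients 1, 2 and 4 were used. Recipient 3 was left out by the rule that set the genes and gates. Of its kept barcodes 77.6% met several of the gates described next, against 3.53% to 9.31% in the others. It is an alternative in the closing section. Barcodes with at least 500 genes and at most 10% mitochondrial counts gave 19960 cells (1689 with the CD45.1 tag, 17885 with CD45.2 and 386 unassigned) at a median of 5782.5 to 5932 unique molecular identifiers (UMIs) per cell and library. Cells were sorted into 5 gates by raw UMIs: Foxp3+Ikzf2+ and Foxp3+Ikzf2- cells (at least 1 Foxp3 UMI, with or without Ikzf2, which encodes Helios), an Il17a gate and a Ccl5 gate (at least 3 UMIs each) and a Cxcr5 gate (at least 1 UMI). The 8.03% of cells that met several gates were left out. The CD45.1 side was thin: its Foxp3+Ikzf2+ gate held 30, 26 and 3 cells in recipients 1, 2 and 4, against 753, 880 and 199 CD45.2 cells, so recipient 4 entered the donor test in that gate on the CD45.2 side only.

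The gates held different shares of the donors' cells. The Foxp3+Ikzf2+ gate took 4.08%, 3.06% and 2.94% of CD45.1 cells and 8.97%, 10.7% and 15.4% of CD45.2 cells. The Il17a gate took 8.97%, 11.5% and 1.96% against 27.1%, 23.5% and 10.2%, whereas the Ccl5 gate took 22.6%, 26.6% and 10.8% against 10.5%, 10.5% and 5.28%. Sums over all cells thus mix the gates in other proportions in each donor, and values within gates are given first. Bcl3 itself was 31.4, 21.6 and 13.8 CPM (UMIs of the gene per 1000000 UMIs of the sum) in all CD45.1 cells and 76.2, 76.5 and 76.0 CPM in all CD45.2 cells, higher in the cells labelled Bcl3-/-. A 3' count can lie outside the deleted part, but which exons the allele removes was not checked. Whether the tags match the genotypes as labelled was not tested either, and a swap would reverse each donor difference read by genotype. The groups are therefore named here by their tags.

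Within the gates, Il1rl1 was the member whose difference between donors was called, but it reached the test through the sums in which it was high, as set out below. In CD45.1 Foxp3+Ikzf2+ cells it was 73.2 CPM in recipient 1 (15 UMIs, in 5 of 30 cells) and 45.6 CPM in recipient 2 (8 UMIs, in 3 of 26 cells). In CD45.2 cells it was 9.39, 2.99 and 4.66 CPM (43, 16 and 5 UMIs, in 13 of 753, 9 of 880 and 1 of 199 cells). The 2 CD45.1 values were high, the 3 CD45.2 values low, and the groups did not overlap. The means were 59.4 ± 19.5 CPM (SD, n = 2) and 5.68 ± 3.32 CPM (SD, n = 3), and edgeR's quasi-likelihood test with recipient as a block put Il1rl1 9.98-fold lower in CD45.2 cells (log2 fold change -3.32, SE 0.734, adjusted p = 0.0473).

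Of the genes tested in this comparison 0.286% were called, 14 higher and 15 lower (0.148%) of 10129 (1 gene in all without recipient 2), and Il1rl1 was the only one of the 6 tested members among them. Il1rl1 passed the filter on low counts through 3 sums, 2 of them the CD45.1 Foxp3+Ikzf2+ sums, so a gene that reached the test in this way had to differ. Its p-value and the lack of overlap are therefore a description and no support for a donor difference. The call supports no statement about the list either. The call rests on 23 CD45.1 UMIs, of which up to 7 came from a single cell, and it did not hold without any one recipient (log2 fold change -3.77 to -2.88, adjusted p = 0.110 to 0.305) or with DESeq2 (-3.65, adjusted p = 0.739). Recipient 4, whose CD45.1 gate was too small for the fit, gave 2 UMIs in 1 of 3 cells.

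**Figure D1:**
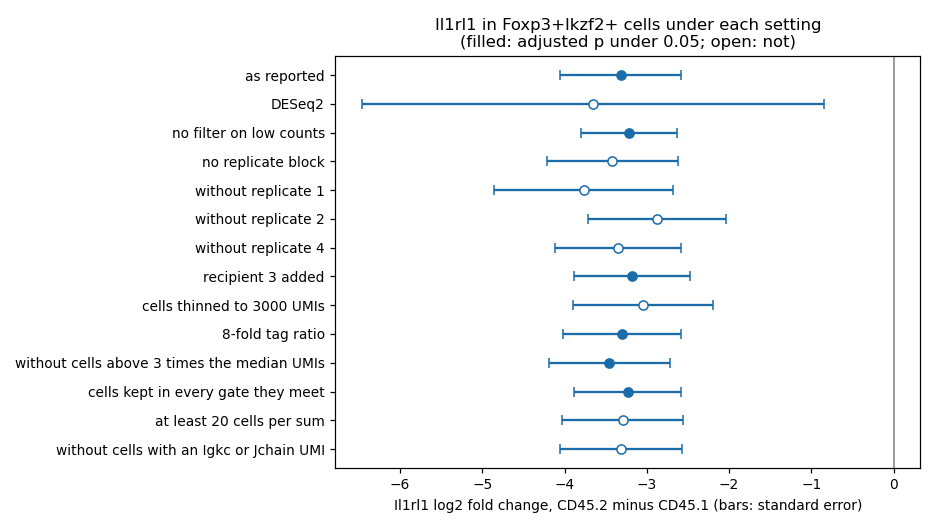
Il1rl1, CD45.2 against CD45.1 in Foxp3+Ikzf2+ cells: log2 fold change on the x axis, with its standard error as a bar, for the reported fit and each alternative on the y axis. Filled points have an adjusted p below 0.05. The reported value is -3.32 and values with a recipient left out run from -3.77 to -2.88, while the filling changes between settings.

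Shares of cells restate the same Il1rl1 UMIs, pooled over recipients with counting error alone, and are no separate support. After each cell was thinned to 3000 UMIs, 4 of 37 CD45.1 Foxp3+Ikzf2+ cells (10.8%) and 18 of 1243 CD45.2 cells (1.45%) held an Il1rl1 UMI. Before thinning these were 9 of 59 (15.3%) and 23 of 1832 (1.26%). The depth of the cells was alike, with medians of 5466 and 5878.5 UMIs in CD45.1 and 5380 and 5410.5 in CD45.2 cells of recipients 1 and 2.

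Other cells in these sums were measured beside the result. Every one of the 9 CD45.1 and 23 CD45.2 cells with Il1rl1 also held UMIs of Cd3e, Trac and Ctla4, genes of T cells and of activated and regulatory T cells. Cd4 was seen in 5 of the 9 and 18 of the 23, against 33 of 50 CD45.1 and 1467 of 1809 CD45.2 cells without Il1rl1. No cell with Il1rl1 held Jchain or a mast cell or basophil marker, and 1 and 2 cells held any marker of group 2 innate lymphoid cells (ILC2), another ST2-bearing type. Igkc stood in 1 CD45.2 cell with Il1rl1, and a gamma-delta T cell marker in 0 CD45.1 and 2 CD45.2 cells. The summed ILC2 markers were 5.70 to 14.6 CPM in CD45.1 and 6.77 to 17.2 CPM in CD45.2 sums, with Arg1, Rxrg and Il5 at 0 in each of the 5. Mast cell and basophil markers summed to 0 in CD45.1 and to 0 to 0.218 CPM in CD45.2 sums, with 8 or 9 of 9 genes at 0.

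Epithelial transcripts were higher in the CD45.1 sums, and B and plasma cell transcripts overlapped between donors and were far higher in 1 CD45.1 sum. Epcam was 78.1 and 142 CPM in CD45.1 and 26.0, 33.8 and 20.5 CPM in CD45.2 Foxp3+Ikzf2+ cells. The 8 epithelial markers together made 87.9 and 160 CPM against 40.0, 49.3 and 30.7 CPM, with Krt20, Vil1 and Lgals2 at 0 in each sum. Epcam UMIs stood in 5 of the 9 CD45.1 cells with Il1rl1 against 10 of 50 without, and in 6 of 23 against 202 of 1809 CD45.2 cells. The 7 B and plasma cell markers made 29.3 and 51297 CPM in CD45.1 and 21.4, 1398 and 29.8 CPM in CD45.2 sums. One CD45.1 cell of recipient 2 held 8969 UMIs of Igkc and Jchain, 5.11% of all UMIs of its sum. No CD45.1 Il1rl1 UMI came from a cell with Igkc or Jchain, and without such cells Il1rl1 was 74.9 and 55.1 CPM against 9.67, 3.11 and 4.86 CPM (log2 fold change -3.31, adjusted p = 0.0574). The part of epithelial transcripts in the result was not tested.

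Other repair genes were seen more often in the cells with Il1rl1, few as these are. Gata3 was seen in 18 of 23 CD45.2 cells with Il1rl1 and in 29.0% of 1809 without. For Areg these were 14 of 23 and 19.6%, and for Klrg1, a receptor of terminally differentiated regulatory T cells, 13 of 23 and 4.75%. In CD45.1 cells, Gata3 stood in 5 of 9 cells with Il1rl1 and 14 of 50 without, and Areg in 3 of 9 and 10 of 50. Depth did not separate the CD45.2 cells, at medians of 5413 UMIs with Il1rl1 and 5382 without.

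**Figure D2:**
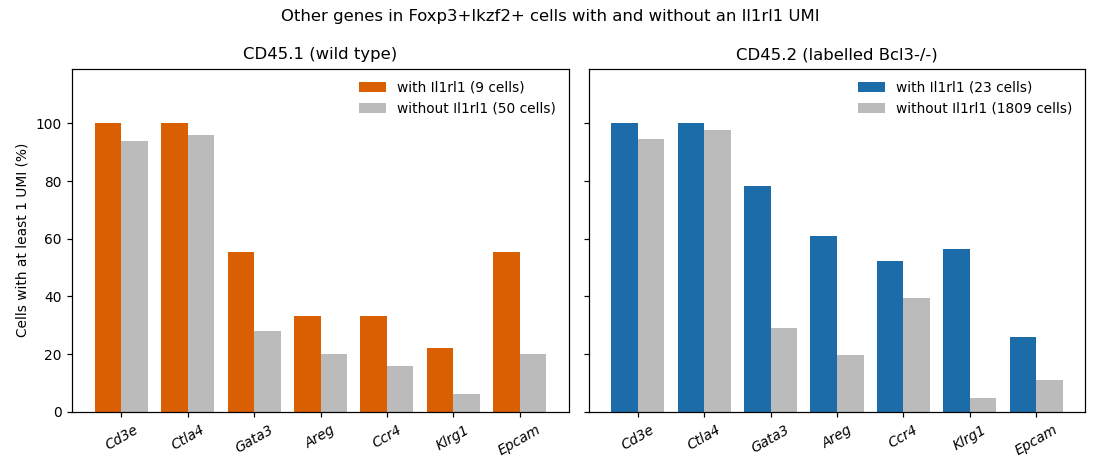
Percentage of Foxp3+Ikzf2+ cells (y axis) with at least 1 UMI of each gene on the x axis, for cells with and without an Il1rl1 UMI in each donor, pooled over recipients 1, 2 and 4. In CD45.2 cells Gata3, Areg and Klrg1 stand higher among the 23 cells with Il1rl1.

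In the other gates Il1rl1 was lower per UMI than in Foxp3+Ikzf2+ cells when recipients were pooled. CD45.1 cells held 0 UMIs in each of the other 4 gates. CD45.2 cells held 2, 0 and 1 UMIs among Foxp3+Ikzf2- cells, 1, 3 and 0 in the Il17a gate, 0, 12 and 0 in the Ccl5 gate and none in the Cxcr5 gate. In recipient 2 the Ccl5 gate, at 2.17 CPM, lay close to the Foxp3+Ikzf2+ cells at 2.99 CPM. A further 22 CD45.2 UMIs came from cells with no gate and 19 from cells that met several. Pooled over recipients, Il1rl1 per UMI was 7.05-fold higher in CD45.2 Foxp3+Ikzf2+ than in Foxp3+Ikzf2- cells (exact 95% interval 2.31 to 35.1, counting error only). It was 40.6-fold higher than in the Il17a gate (15.1 to 154), 5.68-fold higher than in the Ccl5 gate (3.04 to 11.6) and at least 11.04-fold higher than in the Cxcr5 gate, taking 3 counts over the group as the floor. These intervals take UMIs as independent. The 64 UMIs of Foxp3+Ikzf2+ cells lay in 23 cells and the 12 of the Ccl5 gate in 5, so the intervals are too narrow. All 12 UMIs of the Ccl5 gate came from recipient 2: without it the fold over that gate was at least 17.6, and without recipient 1 it was 1.61 (0.756 to 3.59), an interval that includes 1. Over Foxp3+Ikzf2- cells the fold was 5.83 (0.937 to 241) without recipient 1, an interval that also includes 1. It was 6.03 (1.94 to 30.3) without recipient 2 and 9.97 (2.64 to 84.3) without recipient 4. The fold over the Il17a gate was 14.4 without recipient 1 and 132 without recipient 2, and that over the Cxcr5 gate at least 2.71 without recipient 1. In CD45.1 cells the same floor gave at least 4.36-fold over Foxp3+Ikzf2- cells and at least 57.1-fold over the Ccl5 gate.

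**Figure D3:**
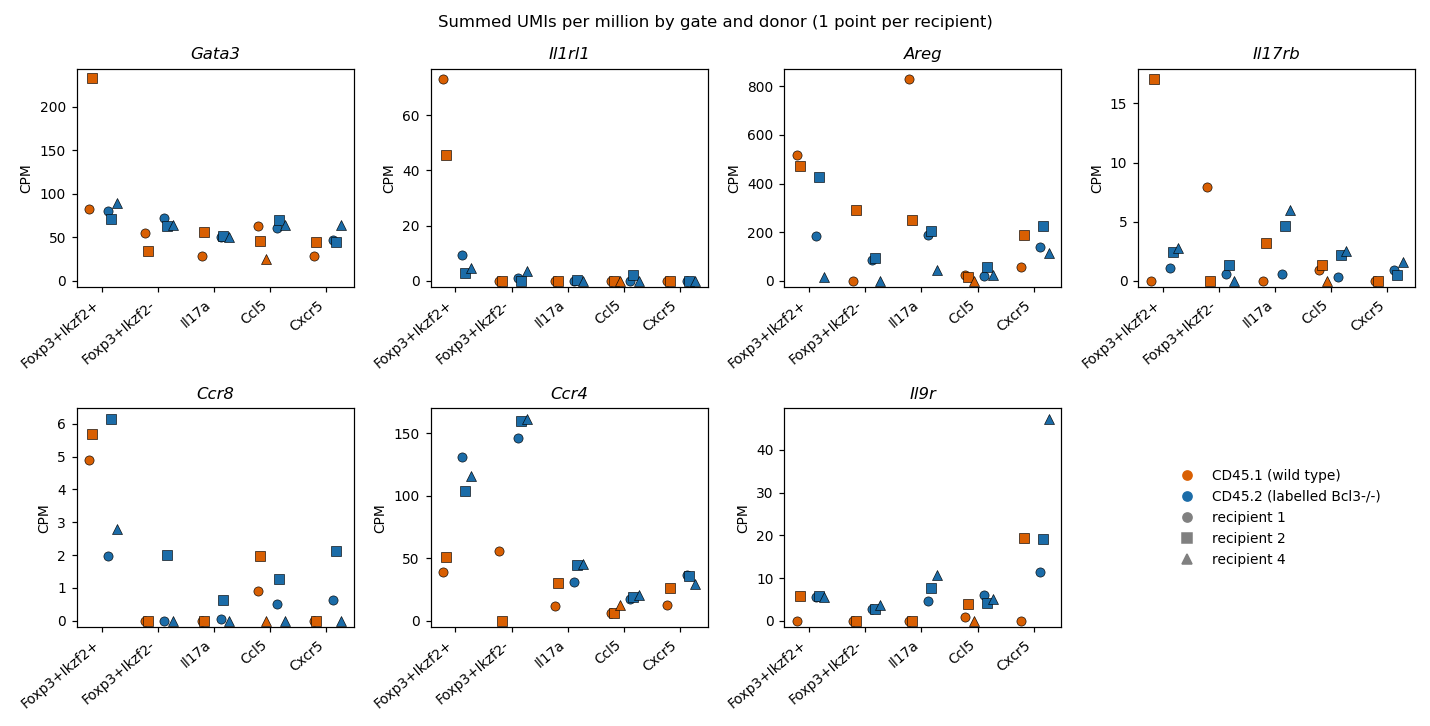
Level of each of the 7 genes (y axis, CPM of summed UMIs) by gate (x axis) and donor, 1 point per recipient. Il1rl1 points stand above the others in CD45.1 Foxp3+Ikzf2+ cells at 73.2 and 45.6 CPM, Ccr4 is high in both Foxp3+ gates of CD45.2 cells, and Areg is widely spread.

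Gata3 was found in every sum and differed little between gates. Among the gates of CD45.2 cells it was highest in Foxp3+Ikzf2+ cells at 80.5 ± 8.90 CPM (80.6, 71.6 and 89.4). Foxp3+Ikzf2- cells followed at 66.7 ± 4.95 and the Ccl5 gate at 64.9 ± 4.70. The Cxcr5 gate held 51.6 ± 10.5 and the Il17a gate 50.5 ± 0.580 CPM (each SD, n = 3). CD45.2 cells that met no gate held 79.1 ± 9.98 CPM (72.0 to 90.5), which overlapped Foxp3+Ikzf2+ cells, so a high level was not particular to that gate. Between pairs of gates in CD45.2 cells many genes differ: of all genes, 20.1%, 24.4% and 27.8% were called between Foxp3+Ikzf2+ cells and the Il17a, Ccl5 and Cxcr5 gates, 12.2%, 14.8% and 25.4% between Foxp3+Ikzf2- cells and the same gates, and 22.5%, 31.5% and 30.2% between Il17a and Ccl5, Il17a and Cxcr5, and Ccl5 and Cxcr5. Of the neighbours in the order of Gata3, only the Ccl5 and Cxcr5 gates differed in edgeR's test (log2 difference 0.45, SE 0.163, adjusted p = 0.0356). This call was lost under 8 of 13 alternatives, among them DESeq2 (adjusted p = 0.0816), no recipient block (adjusted p = 0.17), and leaving out recipient 1 (adjusted p = 0.0547) or recipient 2 (0.31, adjusted p = 0.311). The spread of Foxp3+Ikzf2+ cells overlapped that of Foxp3+Ikzf2- cells (0.16, adjusted p = 0.845).

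Between donors, Gata3 in Foxp3+Ikzf2+ cells was 83.0 and 234 CPM in CD45.1 against 80.6, 71.6 and 89.4 CPM in CD45.2 cells. The high value is recipient 2, where 16 of the 41 UMIs came from 1 cell, and the other CD45.1 value lay within the CD45.2 range. The log2 difference was -1.06 (SE 0.281, edgeR adjusted p = 0.120), and without recipient 2 it was -0.019 (adjusted p = 1). It passed the test with DESeq2 (-1.13, adjusted p = 0.00626) and without recipient 1 (-1.77, adjusted p = 0.00117). In Foxp3+Ikzf2- cells Gata3 was 55.6 and 34.5 against 72.3, 63.0 and 64.7 CPM (0.46, adjusted p = 0.80). The difference of these differences was -1.52 (SE 0.595, adjusted p = 0.614), so the donors were not shown to differ more in one Foxp3+ gate than in the other.

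Areg varied widely between recipients. In CD45.2 Foxp3+Ikzf2+ cells it was 183, 428 and 15.8 CPM in recipients 1, 2 and 4, and in CD45.1 cells 518 and 473 CPM. The CD45.1 values lay above all CD45.2 values, but those ranged widely and the difference did not pass the test (log2 difference -1.01, edgeR adjusted p = 0.576). A few cells supplied most of it: cells with at least 10 Areg UMIs, 19 of 753 and 68 of 880 CD45.2 cells, held 58.5% and 77.1% of the UMIs, and 3 of 30 and 4 of 26 CD45.1 cells held 87.7% and 94.0%. In recipient 4 no cell reached 10 UMIs.

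The order of Areg levels in CD45.2 cells was Foxp3+Ikzf2+ cells at 209 ± 207 CPM, the Cxcr5 gate at 159 ± 59.9, the Il17a gate at 146 ± 89.3, Foxp3+Ikzf2- cells at 59.7 ± 52.1 and the Ccl5 gate at 33.8 ± 18.9 (SD, n = 3). No neighbours in this order differed in edgeR's test. Foxp3+Ikzf2- cells held 83.7, 95.5 and 0 CPM, each below the Foxp3+Ikzf2+ cells of the same recipient (1.55, SE 0.441, adjusted p = 0.0953). In the Il17a gate CD45.1 cells held 831 and 252 CPM against 189, 205 and 42.8 CPM (-1.48, adjusted p = 0.279). Both CD45.1 values again lay above the CD45.2 values, a difference that did not pass the test.

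Ccr4 was high in both Foxp3+ gates. In CD45.2 cells it was 146, 160 and 162 CPM in Foxp3+Ikzf2- cells (156 ± 8.48, SD, n = 3) and 131, 104 and 116 CPM in Foxp3+Ikzf2+ cells (117 ± 13.8), which differed by -0.44 on the log2 scale without passing the test (adjusted p = 0.224). The Il17a gate at 40.4 ± 7.84, the Cxcr5 gate at 33.9 ± 3.98 and the Ccl5 gate at 18.9 ± 1.74 CPM all lay below both. The step from Foxp3+Ikzf2+ cells to the Il17a gate was called (1.59, SE 0.147, adjusted p = 3.9e-10, with 20.1% of genes called), as was that from the Cxcr5 to the Ccl5 gate (0.94, SE 0.230, adjusted p = 0.00168, with 30.2% called).

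Ccr4 was lower in CD45.1 than in CD45.2 cells in each gate. In Foxp3+Ikzf2+ cells it was 39.1 and 51.3 against 131, 104 and 116 CPM, and in Foxp3+Ikzf2- cells 55.6 and 0 against 146, 160 and 162 CPM. In the Ccl5 gate it was 6.32, 5.87 and 12.7 against 17.0, 19.4 and 20.4 CPM. In the Il17a gate it was 12.0 and 30.3 against 31.4, 44.7 and 45.23 CPM, and in the Cxcr5 gate 12.8 and 25.8 against 36.7, 35.7 and 29.4 CPM. The donors did not overlap in any of the 5 gates. These gates share the same animals, so they are not separate observations, and the share of all genes without overlap was not counted. In cells that met no gate the donors did overlap, at 16.3 to 60.4 CPM (139 UMIs) in CD45.1 and 45.3 to 56.2 CPM in CD45.2 cells. None of the 5 differences passed edgeR's test: they were 1.30 (SE 0.435, adjusted p = 0.306), 1.99 (SE 0.606, adjusted p = 0.111), 1.48 (SE 0.450, adjusted p = 0.0835), 0.73 (adjusted p = 0.747) and 1.03 (adjusted p = 0.713). With DESeq2 the difference in the Ccl5 gate passed (1.47, adjusted p = 0.0355). CD45.1 sums held at most 19 Ccr4 UMIs in a gate.

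Summed over all cells, with or without a gate, Ccr4 was 15.8, 21.9 and 47.5 CPM in CD45.1 and 50.3, 56.1 and 62.7 CPM in CD45.2 cells. Here the groups did not overlap. The difference passed the test at 2.29-fold (log2 fold change 1.19, SE 0.164, edgeR adjusted p = 9.3e-04). Without the recipient block it did not (edgeR adjusted p = 0.0615). Il9r rose as well, from 1.23, 4.21 and 3.06 to 5.86, 7.83 and 15.0 CPM (2.48-fold, 1.31, SE 0.299, adjusted p = 0.0165; 0.197 without the block). In this comparison 12.9% of 10694 genes were called, 6.7% as higher, and 2 of 6 members tested were called, both higher. Gata3 and Il17rb were not called, nor was Areg at 113, 94.4 and 30.6 against 126, 201 and 38.5 CPM (0.46, adjusted p = 0.122), and Il1rl1 was too low to be tested.

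**Figure D4:**
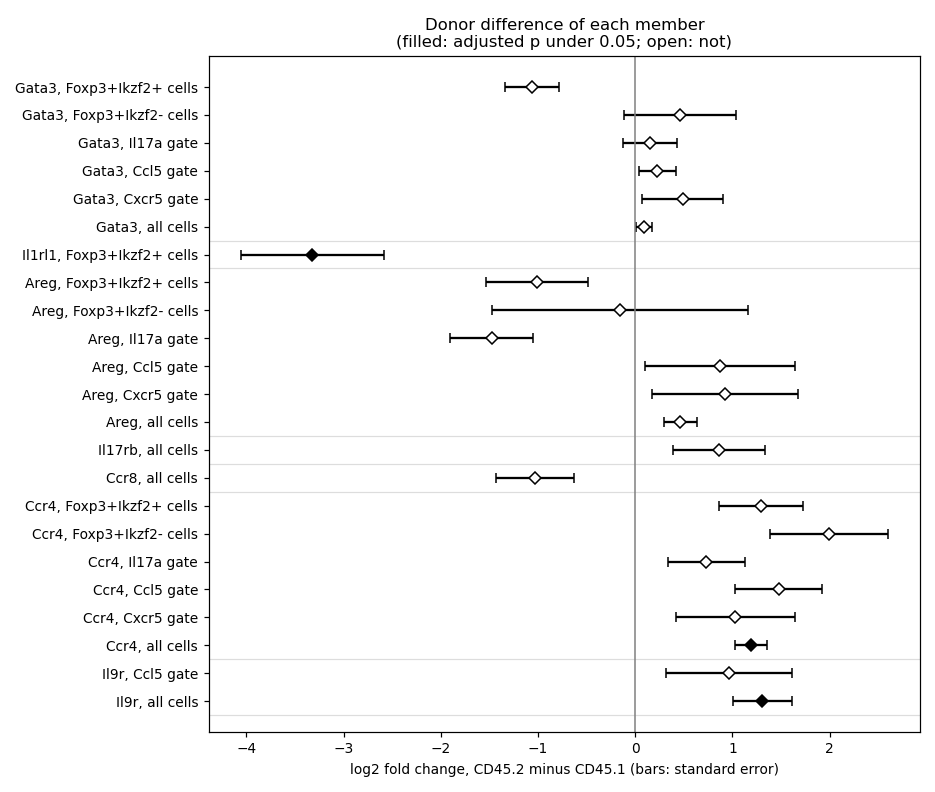
Log2 fold change of CD45.2 against CD45.1 cells (x axis, with standard error) for each gene and each gate or all cells. Filled points have an adjusted p below 0.05, which held for Il1rl1 in Foxp3+Ikzf2+ cells and for Ccr4 and Il9r over all cells. Il1rl1 reached the test through the sums in which it was high, so its filled point is no support for a difference. Ccr4 points lie above 0 in each gate.

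Il9r, the receptor of the growth factor IL-9, belonged more to the Cxcr5 gate than to the Foxp3+ gates. CD45.2 cells of the Cxcr5 gate held 11.5, 19.2 and 47.3 CPM (26.0 ± 18.9, SD, n = 3), above the Il17a gate at 7.71 ± 3.01 (log2 difference 1.53, SE 0.281, edgeR adjusted p = 6.3e-05, with 31.5% of genes called). Foxp3+Ikzf2+ cells held 5.46, 5.78 and 5.59 CPM, the Ccl5 gate 5.09 ± 0.927 and Foxp3+Ikzf2- cells 2.98 ± 0.532. The recipients lay close together in Foxp3+Ikzf2+ cells and far apart in the Cxcr5 gate. None of the lower neighbours differed in the test.

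Il17rb and Ccr8 were scarce. Il17rb was 3.75 ± 2.79 CPM in the Il17a gate, 2.10 ± 0.896 in Foxp3+Ikzf2+ cells (1.09, 2.43 and 2.79) and 1.69 ± 1.18, 1.03 ± 0.556 and 0.622 ± 0.667 in the Ccl5 gate, the Cxcr5 gate and Foxp3+Ikzf2- cells (SD, n = 3, CD45.2), and no neighbours differed. CD45.2 cells that met no gate held 5.45 ± 2.71 CPM, above the mean of each gate. CD45.1 Foxp3+Ikzf2+ cells held 0 and 17.1 CPM, the latter from 3 UMIs. Ccr8 reached the filter in none of the 32 sums and was not tested by gate. It was 1.96, 6.16 and 2.79 CPM in CD45.2 Foxp3+Ikzf2+ cells, with 45 UMIs in all, and 4.88 and 5.70 CPM, 1 UMI each, in CD45.1 cells.

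Pooled by counts, Ccr8 in CD45.2 Foxp3+Ikzf2+ cells was 4.96-fold higher than in Foxp3+Ikzf2- cells (exact 95% interval 1.59 to 24.9), 12.7-fold higher than in the Il17a gate (6.13 to 29.5), 4.79-fold higher than in the Ccl5 gate (2.38 to 10.7) and 3.88-fold higher than in the Cxcr5 gate (1.65 to 11.1), counting error only. Of the 45 UMIs, 33 came from recipient 2, and without it the fold was at least 1.51 over Foxp3+Ikzf2- cells, 33.0 over the Il17a gate, 4.39 over the Ccl5 gate and 4.06 (0.904 to 37.4) over the Cxcr5 gate. Over all cells Ccr8 was 2.47, 3.29 and 3.06 CPM in CD45.1 and 0.794, 2.31 and 2.26 CPM in CD45.2 cells (log2 difference -1.03, edgeR adjusted p = 0.137). These groups did not overlap, and the difference did not pass the test.

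Taking Foxp3+Ikzf2+ cells against the mean of the Il17a, Ccl5 and Cxcr5 gates in CD45.2 cells, Ccr4, Areg and Gata3 were called higher, where 21.5% of all genes were called and 12.5% were called higher. Ccr4 was higher by 1.96 on the log2 scale (SE 0.125, edgeR adjusted p = 6.4e-14), Areg by 1.17 (SE 0.288, adjusted p = 0.00279) and Gata3 by 0.48 (SE 0.113, adjusted p = 0.00159). Il1rl1, with 0 UMIs in the Cxcr5 gate and so given no fold, was called too, but it passed the filter through only 3 of the 32 sums, as given above, and is not counted here. Taken gate by gate, Ccr4 was called against each of these gates. Gata3 was called against the Il17a gate (0.61, edgeR adjusted p = 7.5e-04) and the Cxcr5 gate (0.65, adjusted p = 0.00204) but not against the Ccl5 gate (0.20, adjusted p = 0.336). Cells that met no gate, where Gata3 was 79.1 CPM, were not part of these comparisons. Areg was called against the Ccl5 gate (2.75, edgeR adjusted p = 6.0e-06) but not against the Il17a gate (0.41, adjusted p = 0.485) or the Cxcr5 gate (0.35, adjusted p = 0.546). In recipient 4 Areg in Foxp3+Ikzf2+ cells, at 15.8 CPM, lay below the Il17a, Ccl5 and Cxcr5 gates at 42.8, 25.5 and 113 CPM. Areg lost its call with DESeq2 (0.70, adjusted p = 0.590) and without recipient 2 (0.72, adjusted p = 0.203). Il9r at -0.69 (adjusted p = 0.0646) and Il17rb at 0.25 (adjusted p = 0.781) were not called. Against Foxp3+Ikzf2- cells, where 0.711% of genes were called (72, and 1029 at an unadjusted p under 0.05), 0 of the 6 members were.

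The wider pathways around these genes were read from listed genes. Of 23 tested genes of tissue and repair regulatory T cells, 18 were higher and 1 lower in CD45.2 Foxp3+Ikzf2+ cells than in the Il17a, Ccl5 and Cxcr5 gates. Of all genes 12.5% were called higher and 8.97% lower. The median log2 difference was 1.63 against -0.0033 over all genes. The list shares Il2ra, Ctla4 and Nrp1 with general markers of regulatory T cells, and the gate was set by Foxp3, so these counts are not particular to repair. The summed list, at 6007 to 8522 CPM, overlapped that of the CD45.2 Il17a gate at 5216 to 8122 CPM. The higher genes included Klrg1 (4.11), Il10 (3.40), Itgae, an integrin chain that binds epithelial E-cadherin (3.05), and Ebi3, a subunit of IL-35 (2.97). Against Foxp3+Ikzf2- cells 9 of the 23 were higher, with a median of 0.12, where 0.553% of all genes were called higher. Among these were Penk, which encodes enkephalin (3.91, SE 0.909, edgeR adjusted p = 0.0313), Klrg1 (3.43, SE 0.614, adjusted p = 0.00371), the semaphorin receptor gene Nrp1 (1.74, SE 0.386, adjusted p = 0.0206) and Ebi3 (1.72, SE 0.302, adjusted p = 0.00344). Without recipient 2 only 5 genes in all were called, and each of these 4 lost its call, with Penk at 3.60 (adjusted p = 0.394), Klrg1 at 2.66 (adjusted p = 0.409), Nrp1 at 1.64 (adjusted p = 0.517) and Ebi3 at 1.38 (adjusted p = 0.496).

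In the comparison with the Il17a, Ccl5 and Cxcr5 gates, where 21.5% of all genes were called, 3 of 11 tested genes of ST2 and IL-33 signalling were. Irak2 (0.45) and Sigirr (0.37) were higher and the kinase gene Mapk14 (-0.39) lower in CD45.2 Foxp3+Ikzf2+ cells, and none differed from Foxp3+Ikzf2- cells. Il1rap, the second chain of the ST2 receptor, stood at 4.4 to 8.4 CPM in CD45.2 Foxp3+Ikzf2+ cells and Il33 at 0. Of the 4 tested genes of IL-25 receptor signalling Traf5 was higher (0.35), and of 4 tested genes of amphiregulin release and its receptor family none was. Of 14 tested Th2 genes, 8 were higher and 1 lower, led by Bhlhe41 (3.75), with Zfpm1, which encodes the GATA partner FOG1, the lower one (-0.86). The Th2 cytokine genes Il5 and Il31 were at 0, and Il4 and Il13 at no more than 2.8 CPM, in CD45.2 Foxp3+Ikzf2+ cells. Il4ra (0.92), Stat5b (0.33) and Il2rg (0.22) were the 3 of 6 tested genes that were higher in the list holding the CCR4 and CCR8 ligands and IL-9, while Ccl17, Ccl22 and Il9 stood at 0 there.

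Immediate early and dissociation genes were 4 higher and 3 lower of 15 in the same comparison, among them Zfp36 (0.66), Klf6 (0.51), Btg2 (-0.63) and Fos (-0.63). Without recipient 2 the calls of Irak2, Sigirr, Mapk14, Traf5, Stat5b, Il2rg, Klf6 and Fos were lost (adjusted p = 0.0529 to 0.314). Against Foxp3+Ikzf2- cells the dissociation list held no called gene, and 2 of 14 Th2 genes were called, Bhlhe41 (2.55) and Batf (0.64, adjusted p = 0.0203). Both calls were lost without recipient 2 (Bhlhe41 2.43, adjusted p = 0.863, and Batf 0.70, adjusted p = 0.315).

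Between donors within Foxp3+Ikzf2+ cells these lists held 2 called genes. Furin, a protease that activates growth factor precursors, was 1 of 23 repair genes (1.45, SE 0.336, edgeR adjusted p = 0.0495), and Jun 1 of 15 dissociation genes (1.20, SE 0.221, adjusted p = 0.00744), both higher in CD45.2 cells. Without recipient 2 both lost the call (Furin 1.57, adjusted p = 0.275, and Jun 1.20, adjusted p = 0.239), and Furin lost it under 10 alternatives in all. Within Foxp3+Ikzf2- cells 1.3% of genes were called and no member was. Maf, a regulator of Il10, was higher by 1.00 (SE 0.160, adjusted p = 9.0e-04) and Furin by 1.65 (adjusted p = 0.0377; 1.25 to 1.90 and not called with any one recipient left out), where the median over all genes was itself 0.21. The Il17a gate (0.0592% of genes called), the Ccl5 gate (2.19%) and the Cxcr5 gate (0.0296%) held no called member.

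The donor differences of the Foxp3+ gates were also set against those of the Il17a, Ccl5 and Cxcr5 gates, and 0 genes were called in edgeR (882 at an unadjusted p under 0.05, 43 with DESeq2). Foxp3+Ikzf2+ against Foxp3+Ikzf2- donor differences called 3 genes (0.0296%), none of them a member. In CD45.1 cells Foxp3+Ikzf2+ against Foxp3+Ikzf2- called 16 genes (0.158%) and no member: Gata3 differed by 1.68 (adjusted p = 0.297), Areg by 2.40 (adjusted p = 0.516) and Ccr4 by 0.26 (adjusted p = 0.963).

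The lists were also read over all cells, where 12.9% of all genes were called. Of 23 repair genes 14 were higher and 1 lower in CD45.2 cells, with a median log2 difference of 0.56; Tff1, a trefoil peptide of mucosal repair (2.63), and Ebi3 (1.92) rose, and Bach2, a repressor of effector differentiation (-1.47), fell. Hbegf, like Areg a ligand of the EGF receptor, was higher by 1.49 (adjusted p = 0.00164), 1 of 4 tested genes of its list. Of 11 ST2 signalling genes Irak2 (0.63), Tab2 (0.36) and Myd88 (0.36) were higher and Ikbkb (-0.45) lower, and the IL-25 receptor chain gene Il17ra was lower (-0.57), 1 of 4. Il4ra (-0.36) and Stat6 (-0.30) were lower, 2 of 6, and Th2 genes 5 higher of 13, including Nfil3 (1.01), Maf (0.86) and Irf4 (0.56). Dissociation genes were 3 higher and 1 lower of 15, with Jun at 0.73 and Hspa1a at -1.02. Without recipient 2 the calls of Irak2, Tab2, Myd88, Il4ra, Stat6, Irf4 and Hspa1a were lost (adjusted p = 0.0669 to 0.566). The donors' shares in the gates differed as given above, and their part in these values was not tested.

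Within CD45.2 Foxp3+Ikzf2+ cells the members were compared cell by cell after thinning. Gata3 was seen in 14 of 24 Klrg1-bearing cells (58.3%) and 88 of 458 others (19.2%) of recipient 1, and in 13 of 31 (41.9%) and 100 of 607 (16.5%) of recipient 2. Areg stood in 12 of 24 against 58 of 458 and in 14 of 31 against 144 of 607. Both genes were thus more often seen beside Klrg1 in recipients 1 and 2, while recipient 4 had 4 such cells, too few to read. Il1rl1 was seen in 5 of 70 Areg-bearing cells against 6 of 412 in recipient 1 and in 5 of 158 against 1 of 480 in recipient 2. Ccr4 showed no such pattern with Gata3, at 33 of 102 against 122 of 380 and 25 of 113 against 113 of 525.

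The genes whose log2 CPM followed a member most closely over the 18 CD45.2 sums, among 6628 genes, are given as a description, since those sums share recipients and depth. For Gata3 they were Fbxo17 (Pearson r 0.829), Etaa1 (0.787) and Cggbp1 (0.756), and for Il1rl1 Spr (0.877), Uba7 (0.812) and Ecm1 (0.810). Areg was followed by Ufc1 (0.931), Ppm1d (0.929) and Csrp1 (0.929), and Ccr4 by Samhd1 (0.933), Peli1 (0.930) and Crlf3 (0.926). Those of Il17rb were Sms (0.782), Sptssa (0.781) and Plp2 (0.754), 2 of those of Ccr8 were Tbc1d15 (0.802) and Tagap (0.797), and those of Il9r Lax1 (0.888), Aldoa (0.880) and Gspt1 (0.877).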

How the data were processed

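The deposited matrices give, per the file headers, unnormalized UMI counts for each barcode and gene or antibody tag. Cell Ranger 6.1.1 and mm10 are named in the submitters' processing notes; the annotation was not given in the sources used here. Gene positions came from GENCODE M21 by Ensembl identifier, and promoter windows from RefSeq (GRCm38.p6). A donor call needed at least 10 tag UMIs and a 4-fold tag ratio. No doublet caller was run; leaving out cells above 3 times the median UMI count was an alternative. Libraries shared 1 to 26 barcode sequences per pair. UMIs were summed per recipient, gate and donor over at least 10 cells, and the 32 sums were tested together in edgeR 4.0.16 (R 4.3.3) with the quasi-likelihood test, TMM scaling, filterByExpr, recipient as a block and Benjamini-Hochberg adjustment over all genes, at an adjusted p below 0.05. The all-cell comparison was fitted apart. Filtering kept genes above 7.65 CPM in at least 2 sums.

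The block pairs both donors' cells of 1 animal: deviations of CD45.1 and CD45.2 sums from their group means correlated at r = 0.313, 0.641 and 0.554 over 6710 genes for recipients 1, 2 and 4. Unmatched pairs ran from -0.591 to 0.325. The highest of them, CD45.1 of recipient 2 with CD45.2 of recipient 1, lay above the matched value of recipient 1. Each recipient is 1 animal. The sums of all gates were tested together, so their p-values rest on the spread among several sums of the same 3 animals. These p-values do not measure the spread between animals alone. In the Foxp3+Ikzf2+ donor test the CD45.1 side held recipients 1 and 2 only. In the all-cell comparison, fitted apart, each recipient gave 1 sum per donor. Alternatives were DESeq2 1.42.0, no filter, no block, each recipient left out, recipient 3 added, thinned cells, an 8-fold tag ratio, larger sums, cells kept in every gate and, chosen after seeing the data, cells with Igkc or Jchain left out. The members and lists were chosen with earlier results of these data known. All 7 members were named in every comparison, and from each list at most the 4 called genes with the largest change, beside genes given at their level. Some genes and a list are not reported here. On simulated counts for the donor comparison in Foxp3+Ikzf2+ cells (10010 genes), 67.3% of 98 genes changed 4-fold and 88.8% of 98 changed 10-fold were called, with 6 unchanged genes. Levels and shares were computed in Python 3.11.15 with numpy 2.4.6, scipy 1.17.1 and pandas 2.3.3, and drawn with matplotlib 3.10.9. Intervals are exact 95% intervals, and intervals and floors (3 counts) cover counting error only. Intervals of count ratios take UMIs as independent, although several can come from 1 cell.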

Additional observations from a re-analysis of the deposited data

Results flagged for a closer look

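Recipient 3 entered no comparison, and its CD45.2 cells gave 50.1 CPM of Gata3, 1.14 of Il1rl1, 156 of Areg, 2.99 of Il17rb, 1.36 of Ccr8, 21.4 of Ccr4 and 6.94 of Il9r over all cells. These are signals in data outside the comparisons. The Ccr4 value lay below those of CD45.2 cells in the other recipients (50.3, 56.1 and 62.7 CPM). It also lay below the 24.3 CPM (7 UMIs) of the 30 CD45.1 cells of recipient 3, the opposite direction to the other recipients. Il17rb in all CD45.1 cells had recipient 3 far from the others at 17.4 CPM, from 5 UMIs in 2 of its 30 cells, with a gap of 0.884 of the whole range. Chance gives such a gap in about 1 of 20 groups.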

How the results depend on the processing

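Over 41 member differences and 516 alternative values, 462 kept their direction and side of the threshold, 22 gained a call, 15 lost it and 17 reversed; over 53 listed genes 557 of 685 values held, 128 lost the call and none reversed; over 18 neighbouring pairs of gates 193 of 228 held, 5 gained and 8 lost a call and 22 reversed. Of 139 counts of called genes 71 stayed within 1.5 times and 68 did not. In each case below the cause was not tested, except that the absence of a filter tests more genes and a left-out recipient leaves fewer sums. Depth limits the CD45.1 side, where a gate held as few as 11 cells in the fits. With at least 20 cells per sum no value could be had for the donor comparison in Foxp3+Ikzf2- cells, the CD45.1 contrast and both differences of differences.

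Counts of called genes for the donor comparison in Foxp3+Ikzf2+ cells were 29, and 86 with DESeq2, 166 without the filter, 12 without the recipient block, 6 thinned, 19 without cells above 3 times the median UMIs and 1 to 27 with a recipient left out (1 without recipient 2). In Foxp3+Ikzf2- cells 132 became 255, 286, 62, 15 and 72 in that order, 62 with recipient 3 added, 55 without Igkc or Jchain cells and 55 to 71 with a recipient left out. The Il17a gate went from 6 to 25 with DESeq2, 98 without the filter, 3 without the block, 17 with cells kept in every gate, 3 with at least 20 cells and 3 to 26 with a recipient left out. The Ccl5 gate went from 222 to 477 without the filter, 60 without the block, 93 thinned, 625 with cells in every gate and 61 to 148 with a recipient left out. The Cxcr5 gate went from 3 to 34 with DESeq2, 88 without the filter, 1 without the block, 9 thinned, 31 with cells in every gate and 2 to 12 with a recipient left out. Over all cells 1376 became 876 with DESeq2, 422 without the block, 481 with recipient 3 and 731 to 1365 with a recipient left out.

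The donor difference of Foxp3+Ikzf2+ minus Foxp3+Ikzf2- cells called 3 genes, and 12 with DESeq2, 52 without the filter, 1 without the block, 1 thinned, 0 without Igkc or Jchain cells and 0 to 4 with a recipient left out. That of the Foxp3+ gates minus the others called 0, and 43 with DESeq2, 128 without the filter, 1 at an 8-fold tag ratio, 2 without Igkc or Jchain cells and 0 to 15 with a recipient left out. Foxp3+Ikzf2+ against Foxp3+Ikzf2- cells called 72 in CD45.2, and 269 without the filter, 10 without the block, 190 with cells in every gate and 5 to 78 with a recipient left out (5 without recipient 2). In CD45.1 it called 16, and 90 with DESeq2, 130 without the filter, 7 without the block, 2 thinned, 39 with cells in every gate, 4 without Igkc or Jchain cells and 7 to 15 with a recipient left out. Against the Il17a, Ccl5 and Cxcr5 gates 2178 became 1244 without the block, 1356 thinned and 1116 to 1915 with a recipient left out. DESeq2 moved the share called higher from 48.3% to 18.6% (donors, Foxp3+Ikzf2+), from 34.8% to 15.3% (donors, Foxp3+Ikzf2-) and from 62.5% to 34.4% (the CD45.1 contrast). The median over all genes in the Foxp3+Ikzf2- donor comparison was 0.21, and 0.62 without recipient 1.

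Values below are log2 differences. Il1rl1 between donors in Foxp3+Ikzf2+ cells (-3.32) lost its call with DESeq2 (-3.65), without the replicate block (-3.42), thinned (-3.05), with at least 20 cells (-3.29), without Igkc or Jchain cells (-3.31) and with a recipient left out (-3.77 to -2.88). Gata3 there gained a call with DESeq2 (-1.13), without the filter (-0.97) and without recipient 1 (-1.77 to -0.019 over recipients). Gata3 reversed in Foxp3+Ikzf2- cells thinned (-0.077), in the Il17a gate thinned (-0.28), with cells in every gate (-0.014) and with a recipient left out (-0.19 to 0.79), in the Ccl5 gate with a recipient left out (-0.028 to 0.52) and over all cells with recipient 3 (-0.020). Ccr4 lost its all-cell call without the block (1.17) and gained one in the Ccl5 gate with DESeq2 (1.47), without the filter (1.53) and with cells in every gate (1.54). It gained one without the filter in Foxp3+Ikzf2+ (1.39) and Foxp3+Ikzf2- cells (2.04). Ccr4 in the difference of the Foxp3+ gates' differences ran from -10.9 to 0.24 with a recipient left out, and in the CD45.1 contrast from -0.55 to 10.3, with -0.37 without Igkc or Jchain cells. Il9r over all cells lost its call without the block (1.55) and thinned (0.88), and against the other gates gained one without the filter (-0.69) and without high-UMI cells (-0.76).

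Areg against the other gates lost its call with DESeq2 (0.70), without the block (1.15), with cells in every gate (0.64) and without recipient 2 (0.72 to 1.39 over recipients). Against Foxp3+Ikzf2- cells in CD45.2 it gained one without the filter (1.58), thinned (1.70), with cells in every gate (1.80) and without recipient 1 (0.92 to 1.91 over recipients), and in CD45.1 without the filter (2.39). Without the filter it also gained donor calls in the Ccl5 (0.92), Cxcr5 (0.94) and Il17a (-1.39) gates, in Foxp3+Ikzf2+ cells (-0.93) and over all cells (0.49, and 0.033 to 0.90 with a recipient left out). In the Ccl5 gate it was 2.80 with cells in every gate and -0.12 to 1.69 with a recipient left out. The donor difference of Areg in Foxp3+Ikzf2- cells reversed with cells in every gate (0.19), without Igkc or Jchain cells (10.8) and with a recipient left out (-1.61 to 10.8). Its difference between the Foxp3+ gates reversed thinned (0.98) and with a recipient left out (-12.6 to 1.04), and that against the other gates without Igkc or Jchain cells (4.77) and with a recipient left out (-1.74 to 4.81). Values beyond 4 in size come from sums at 0 and depend on the prior count, so they are no estimate of a fold.

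Neighbours in the order of levels that changed places were not called as reported, except where named in the report. For Gata3, Foxp3+Ikzf2- minus Ccl5 became -0.0054 without the filter, -0.15 without recipient 1 (0.17 without recipient 2) and -0.059 with cells in every gate, and Il17a minus Cxcr5 -0.042 without recipient 2 (0.11 without recipient 4), -0.0088 thinned and -0.060 with cells in every gate. For Areg, Foxp3+Ikzf2+ minus Cxcr5 became -0.20 with DESeq2 and -0.25 without recipient 2 (0.67 without recipient 4), Il17a minus Cxcr5 -0.46 to 0.13 with a recipient left out, and Foxp3+Ikzf2- minus Ccl5 -0.76 with cells in every gate. For Ccr4, Il17a minus Cxcr5 became -0.073 to 0.39 with a recipient left out, -0.15 thinned and -0.17 with cells in every gate, and for Il1rl1, Il17a minus Ccl5 ran from -2.92 to 1.31 with a recipient left out. For Il9r, Foxp3+Ikzf2+ minus Ccl5 became 0.095 without the block, -0.35 to 0.30 with a recipient left out, 0.080 with recipient 3, 0.65 thinned and 8.2e-04 with cells in every gate. Thinned, Foxp3+Ikzf2+ minus Il17a became 0.029 and Foxp3+Ikzf2- minus Ccl5 0.011.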
